A study of Mus musculus with 2 samples.

Results

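The genes described here are the amino acid transporters of the solute carrier (SLC) families, taken as the protein-coding genes of the Slc1a, Slc6a, Slc7a, Slc36a, Slc38a and Slc43a families together with Slc3a1 and Slc3a2. The rule gave 63 of the 47719 genes in the table. RNA was sequenced from cultured tail keratinocytes, the epithelial cells of the epidermis, of C57BL/6J mice aged 8 weeks after 3 days in Medium 154CF. There was 1 library of genotype K5.Pp6fl/fl, titled cKO, and 1 library of genotype Pp6fl/fl, and both carry the floxed Pp6 allele. Pp6 is the gene for the catalytic subunit of protein phosphatase 6 and stands in the table as Ppp6c, and K5 is the usual name of the keratin 5 promoter of basal keratinocytes. How many mice gave cells to a culture is not in the labels. With 1 library per genotype no difference below has a replicate check or a test, and each 95% interval covers counting error only.

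Amino acids cannot cross the plasma membrane unaided, and cells take them up by carriers that differ in substrate and in driving force. Uniporters and sodium- or proton-coupled carriers bring amino acids in, while obligate exchangers trade an internal amino acid for an external one. Several Slc7 light chains carry the substrate but reach the cell surface only when bound to a glycoprotein heavy chain, Slc3a2 (CD98) or Slc3a1. In keratinocytes these carriers feed protein and keratin synthesis, glutathione synthesis from cystine, and the nutrient sensing that controls mTORC1.

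The libraries held 17361259 estimated reads for K5.Pp6fl/fl and 19374767 for Pp6fl/fl. Ppp6c was at 40.7 CPM (reads scaled for library size) in K5.Pp6fl/fl and 55.5 CPM in Pp6fl/fl, a fold of 0.733 (0.665 to 0.806), and at 16.8 FPKM in K5.Pp6fl/fl and 30.6 FPKM in Pp6fl/fl. These are whole-gene values, which would also count any transcript parts outside a deletion and any cells that kept the gene. Neither was measured. All 10 keratinocyte markers were expressed in both libraries, with Krt14 at 28559 CPM in K5.Pp6fl/fl and 30702 CPM in Pp6fl/fl. The immune markers Ptprc, Cd3e, Cd207, Cd74 and Lyz2 had 0 reads in both, which allows up to 0.173 CPM in K5.Pp6fl/fl and 0.155 CPM in Pp6fl/fl. The last of the 6 immune markers, Cd68, was at 25.0 CPM in K5.Pp6fl/fl and 29.7 CPM in Pp6fl/fl, a fold of 0.84 (0.74 to 0.953). Fibroblast markers summed to 0.92 CPM in K5.Pp6fl/fl and 0.775 CPM in Pp6fl/fl, and endothelial markers to 1.5 and 0.982 CPM in the same order. The 6 melanocyte markers summed to 15.4 CPM in K5.Pp6fl/fl and 7.7 CPM in Pp6fl/fl, a fold of 2.0 (1.63 to 2.46). Of the 4 at 1 CPM or more, 3 were called higher by the rule given below, where 3.47% of all such genes were. Tyr, the other of the 4, reached 1 CPM only in K5.Pp6fl/fl. In a bulk library more cells of a type and more RNA per cell cannot be told apart.

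The transporter set of these keratinocytes was nearly the same in both genotypes, with a few low members apart. Of the 63 members, 28 reached 1 CPM in at least 1 library and are called expressed. Another 17 had reads but stayed under that floor, with at most 14 reads in a library, and 18 had 0 reads in both libraries. A gene was called when its log2 ratio, taken after adding 0.5 CPM to both values, was at least 1.5-fold in size and its counting interval excluded a ratio of 1. By this rule 3 members were higher in K5.Pp6fl/fl, namely Slc6a14, Slc38a4 and Slc7a2, where 3.47% of all 12325 expressed genes were, and 1 member was lower, Slc1a3, where 1.26% of all expressed genes were. With 0.5 CPM added to both values, Slc6a14 was also the only expressed member at least 2-fold apart, where 0.811% of genes were higher and 0.195% lower by that much. The median log2 ratio over the 28 expressed members was 0.01, against -0.01 over all expressed genes and 0.02 over 163 other expressed Slc genes, of which 4 were called higher and 1 lower. The counting interval lay above 1 for 9 members, where it did for 16.6% of all expressed genes, below 1 for 7, where it did for 17.4%, and included 1 for 12. Abundant genes have narrow intervals, so such counts also follow read depth.

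The abundant members differed little. None of the 10 members averaging 50 CPM or more over the libraries was called, and their log2 ratios ran from -0.20 to 0.25 with a median of -0.05. Among all genes at that level, 1.07% were called higher and 0.228% lower. All 4 called members were among the 18 expressed members below 50 CPM, where 4.8% of all such genes were called higher and 1.83% lower. The median log2 ratio of these 18, among them Slc7a2, which passed the floor only through K5.Pp6fl/fl, was 0.20, against -0.01 over all expressed genes at that level.

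**Figure D1:**
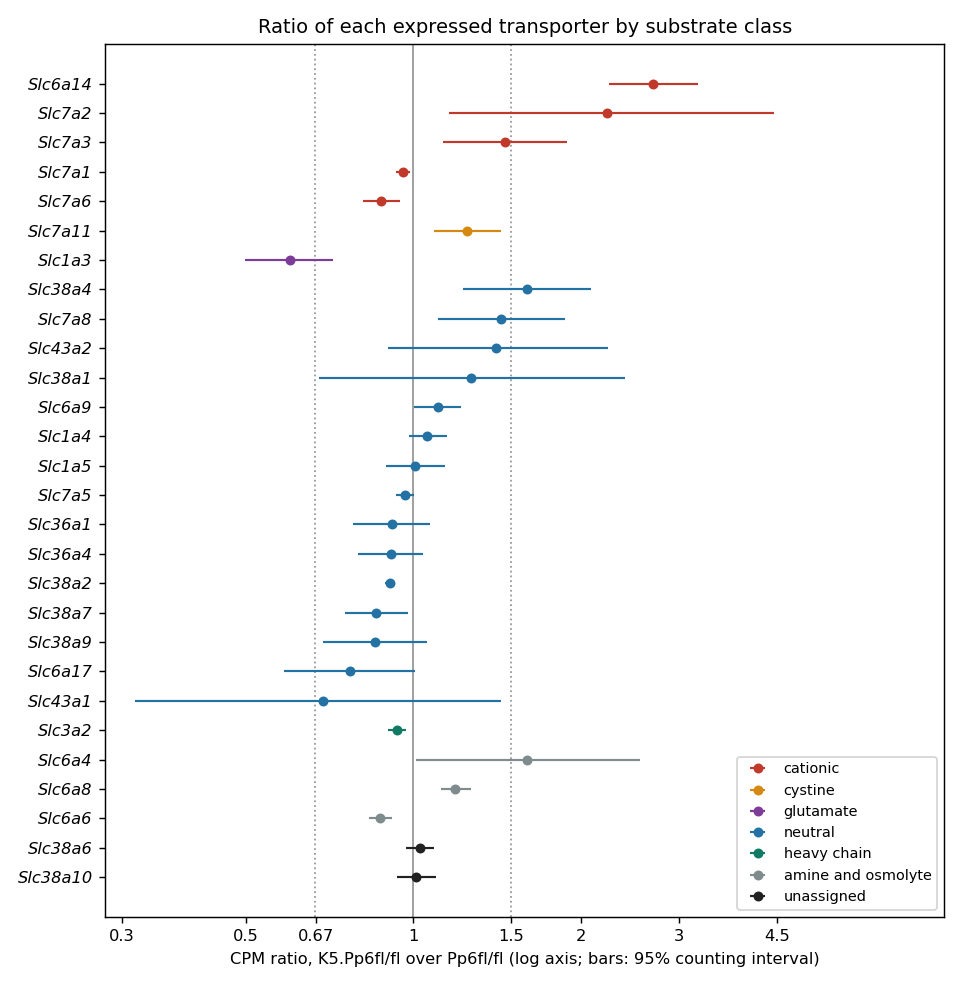
K5.Pp6fl/fl over Pp6fl/fl CPM ratio (log axis) of the 28 expressed members (points) with 95% counting intervals (bars), coloured by substrate class; the solid line marks a ratio of 1 and the dotted lines 1.5-fold either way. Slc6a14 at 2.7 and Slc1a3 at 0.6 stand apart from the abundant members, whose ratios lie close to 1.

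Levels were compared between genes by the deposited FPKM, which divides reads by transcript length. The same 4 genes led both libraries and made up 68.9% of the summed FPKM of all members in K5.Pp6fl/fl and 71.1% in Pp6fl/fl. They were the heavy chain Slc3a2 (217 FPKM in K5.Pp6fl/fl, 230 FPKM in Pp6fl/fl), the glutamine and small neutral amino acid carrier Slc38a2 (215 and 235 FPKM in the same order), the large neutral exchanger Slc7a5 (97.5 and 99.4 FPKM) and the arginine and lysine carrier Slc7a1 (73.2 and 76.4 FPKM). Slc3a2 and Slc38a2 exchanged the first rank between the libraries, a difference between near-equal levels. By class, neutral transporters held 45.9% of the summed FPKM in K5.Pp6fl/fl and 46.6% in Pp6fl/fl, heavy chains 24.8% and 25.6%, and cationic transporters 12.2% and 11.6%. Cystine and glutamate transporters were each under 1% in both libraries.

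**Figure D2:**
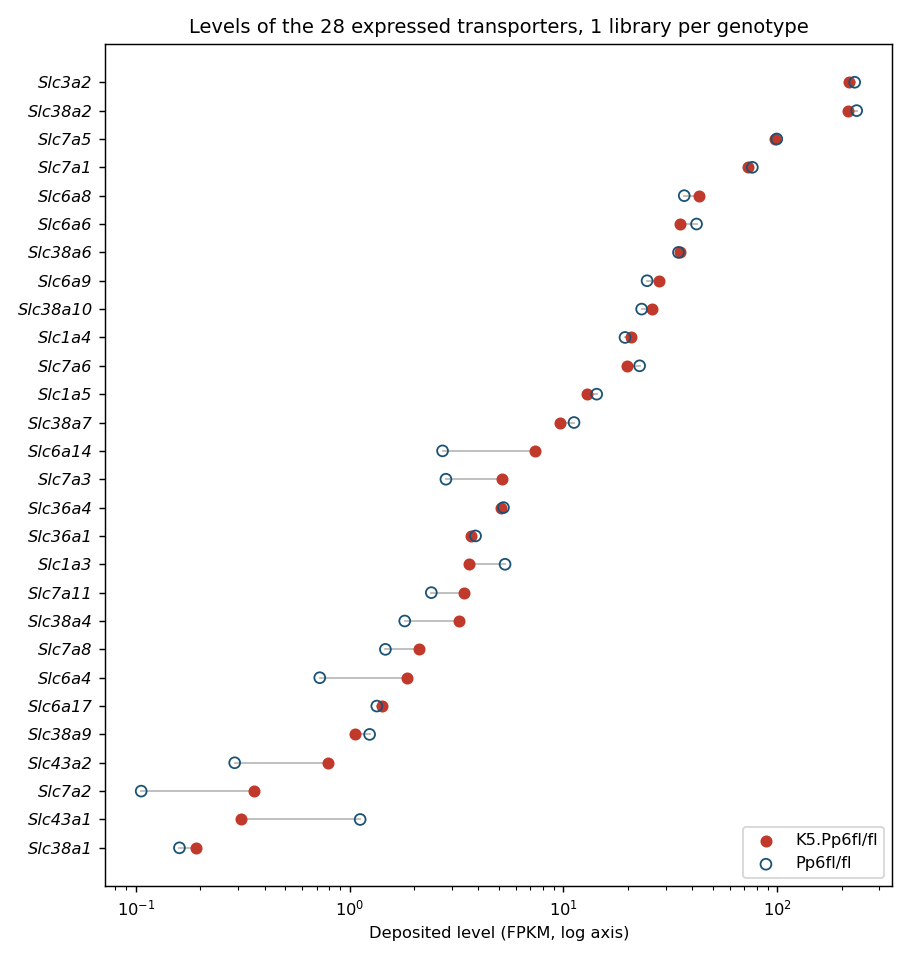
Deposited FPKM (log axis) of the 28 expressed members in K5.Pp6fl/fl (filled) and Pp6fl/fl (open), ordered by level in K5.Pp6fl/fl. The 4 leading genes nearly coincide between genotypes, and the widest gaps among the lower genes belong to Slc7a2, Slc43a1, Slc43a2, Slc6a14 and Slc6a4.

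The promoters of 3 members are shown because the results turn on these genes: Slc6a14, the member most higher in K5.Pp6fl/fl, Slc1a3, the only member called lower, and Slc7a11, the cystine exchanger and textbook target of amino acid starvation. Each is the 250 bases before the annotated start in RefSeq on GRCm38.p6, read 5′ to 3′ on the gene's strand, and capitals mark matches on either strand to TGATGNAA, the core of the C/EBP-ATF element bound by ATF4, or to TGANTCA, the AP-1 type element.
Slc6a14 (chrX:21714650-21714899, plus strand): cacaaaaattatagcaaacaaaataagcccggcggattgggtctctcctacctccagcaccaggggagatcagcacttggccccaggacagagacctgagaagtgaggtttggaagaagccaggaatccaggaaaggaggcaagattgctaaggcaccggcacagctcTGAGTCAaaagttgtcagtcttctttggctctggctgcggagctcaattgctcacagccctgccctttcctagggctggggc
Slc1a3 (chr15:8710808-8711057, minus strand): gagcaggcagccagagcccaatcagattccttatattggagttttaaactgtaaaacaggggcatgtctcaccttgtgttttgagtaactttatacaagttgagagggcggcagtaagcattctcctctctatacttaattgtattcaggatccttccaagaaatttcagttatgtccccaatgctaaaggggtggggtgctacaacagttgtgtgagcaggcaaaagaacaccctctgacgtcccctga
Slc7a11 (chr3:50443614-50443863, minus strand): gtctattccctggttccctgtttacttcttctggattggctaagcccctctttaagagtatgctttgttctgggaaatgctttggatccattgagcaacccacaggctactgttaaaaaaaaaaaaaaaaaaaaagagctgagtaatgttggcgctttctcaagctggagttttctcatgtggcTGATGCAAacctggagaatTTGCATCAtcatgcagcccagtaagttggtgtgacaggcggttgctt
The Slc6a14 window held 1 AP-1 type match, 82 to 76 bases before the start. The Slc7a11 window held 2 C/EBP-ATF matches, on opposite strands, at 66 to 59 and 47 to 40 bases before the start. The Slc1a3 window held neither motif. Of the 28 expressed members 21 had a promoter in the table, with 29 windows. Slc7a11 was the only one of the 21 with the C/EBP-ATF motif, which 3.45% of all 32851 promoter windows hold. The AP-1 type motif was in the windows of 5 of the 21 members, Slc38a10, Slc38a7, Slc6a14, Slc6a17 and Slc7a1, and in 6.75% of all windows. For both motifs the members are counted by gene and the share by window. A member with several windows has more chances of a match, so the count and the share are not alike. A match is a description of letters and not a bound site.

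Of 6 cationic amino acid transporters 5 were expressed, and 2 were called higher, Slc6a14 and Slc7a2, where 3.47% of all expressed genes were. None was called lower. The log2 ratios ran from -0.19 to 1.38 with a median of 0.51, in which each member counts alike whatever its level. Slc7a2 passed the floor only through K5.Pp6fl/fl, and at a floor of 5 CPM, which leaves it out, the median was 0.22. Over the summed reads of the class, 10243 in K5.Pp6fl/fl and 11649 in Pp6fl/fl, the fold was 0.979 (0.953 to 1.005).

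Slc6a14 encodes ATB0,+, which concentrates neutral and cationic amino acids, arginine among them, with sodium and chloride. It had 400 reads in the K5.Pp6fl/fl library (362 to 441) and 165 in the Pp6fl/fl library (141 to 192), intervals that do not overlap. This corresponds to 23.0 CPM in K5.Pp6fl/fl and 8.53 CPM in Pp6fl/fl, a fold of 2.7 (2.25 to 3.25). By FPKM it was 7.37 in K5.Pp6fl/fl and 2.72 in Pp6fl/fl, a fold of 2.71. In the authors' deposited table it had a log2 fold change of 1.41 and was the only member marked significant, as were 1.35% of all expressed genes. That mark also rests on 1 library per genotype, with no spread between cultures behind it. Only 15 of the 10254 genes at 5 CPM or more had a higher log2 ratio. Its share of the FPKM of the cationic class was 6.93% in K5.Pp6fl/fl and 2.59% in Pp6fl/fl.

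The CAT uniporters of arginine, lysine and ornithine are Slc7a1, Slc7a2 and Slc7a3. Slc7a1 (CAT1), the main one, had 8477 reads in K5.Pp6fl/fl and 9848 in Pp6fl/fl, or 488 and 509 CPM in that order, a fold of 0.958 (0.931 to 0.986). It made up 68.9% of the cationic FPKM in K5.Pp6fl/fl and 72.9% in Pp6fl/fl. Slc7a3 (CAT3) had 147 reads in K5.Pp6fl/fl and 112 in Pp6fl/fl, a fold of 1.46 (1.13 to 1.89), short of the 1.5-fold rule. Slc7a2 (CAT2) had 30 reads in K5.Pp6fl/fl (20.2 to 42.8) and 15 in Pp6fl/fl (8.4 to 24.7), a fold of 2.23 (1.16 to 4.45) from intervals that overlap. It passed the 1 CPM floor only through K5.Pp6fl/fl, at 1.73 CPM against 0.775 CPM in Pp6fl/fl, so it was counted only because of the higher library. It was not called with a pseudocount of 2 CPM or a floor of 5 CPM. By FPKM it was not called because it was under the floor of 1 FPKM. It was at 0.359 FPKM in K5.Pp6fl/fl and 0.106 FPKM in Pp6fl/fl, a fold of 3.4. The exchangers of cationic against neutral amino acids pair with Slc3a2. Slc7a6 (y+LAT2) was at 68.2 CPM in K5.Pp6fl/fl and 77.8 CPM in Pp6fl/fl, a fold of 0.876 (0.811 to 0.946), and Slc7a7 (y+LAT1) had 4 reads in K5.Pp6fl/fl and 3 in Pp6fl/fl.

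Cystine transport rested on Slc7a11 (xCT), which imports cystine for glutathione synthesis in exchange for glutamate. It had 426 reads in K5.Pp6fl/fl (387 to 468) and 378 in Pp6fl/fl (341 to 418), or 24.5 and 19.5 CPM in that order. The fold was 1.25 (1.09 to 1.44) by CPM and 1.43 by FPKM, and it was not called. The kidney transporters Slc7a9 and Slc7a13 had 0 reads in both libraries. Among 11 expressed genes of cystine use and glutathione, none was called, where 3.47% of all expressed genes were higher and 1.26% lower. The median log2 ratio of the 11 was 0.13. The most abundant of them by FPKM were the lipid peroxidase Gpx4, at a fold of 0.978 (0.927 to 1.03), and the antioxidant regulator Nfe2l2 (NRF2), at 1.02 (0.983 to 1.07). Gclc, the catalytic subunit of the rate-limiting enzyme of glutathione synthesis, had the lowest ratio, at 134 CPM in K5.Pp6fl/fl and 171 CPM in Pp6fl/fl, a fold of 0.781 (0.74 to 0.824), and was named after its value was seen.

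High-affinity glutamate transporters take up glutamate and aspartate with sodium and are best known from glia and neurons. Only Slc1a3 (EAAT1) of the 5 was expressed, and it was lower in K5.Pp6fl/fl. It had 188 reads in K5.Pp6fl/fl (162 to 217) and 349 in Pp6fl/fl (313 to 388), intervals that do not overlap. This is 10.8 CPM in K5.Pp6fl/fl and 18 CPM in Pp6fl/fl, a fold of 0.6 (0.499 to 0.718). The difference was smaller by FPKM, 3.61 in K5.Pp6fl/fl and 5.33 in Pp6fl/fl, a fold of 0.679, and by log2(FPKM + 0.5) Slc1a3 did not pass the 1.5-fold rule. The log2 fold change in the authors' deposited table was -0.55, not marked significant. Among the genes at 5 CPM or more 22 had a lower log2 ratio. Slc1a1 (EAAT3), which also carries cysteine, was under the floor, with 13 reads in K5.Pp6fl/fl and 3 in Pp6fl/fl, a ratio of 4.82 with an interval of 1.33 to 26.4. Slc1a2 had 2 reads in each library, and Slc1a6 and Slc1a7 had 0.

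Neutral amino acid transporters were the largest class, with 15 of 29 members expressed. Of the 15, 1 was called higher and none lower, where 3.47% of all expressed genes were higher and 1.26% lower. Their median log2 ratio was -0.05 and the range -0.35 to 0.63. The summed reads were 25806 in K5.Pp6fl/fl and 30598 in Pp6fl/fl, a fold of 0.939 (0.923 to 0.954), to which Slc38a2 contributed most.

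The system A carriers take up small neutral amino acids with sodium. Slc38a2 (SNAT2), which is induced by amino acid starvation, had 16084 reads in K5.Pp6fl/fl and 19674 in Pp6fl/fl, or 925 and 1017 CPM in that order, a fold of 0.91 (0.891 to 0.929). Slc38a4 (SNAT4) had 141 reads in K5.Pp6fl/fl (119 to 166) and 98 in Pp6fl/fl (79.6 to 119). At 8.11 CPM in K5.Pp6fl/fl and 5.06 CPM in Pp6fl/fl, it was called higher with a fold of 1.6 (1.23 to 2.09), and by FPKM the fold was 1.79. With a pseudocount of 2 CPM it was not called. Slc38a1 (SNAT1) had 24 reads in K5.Pp6fl/fl and 21 in Pp6fl/fl, with an interval of the ratio from 0.678 to 2.4. The sum of these 3 genes had a fold of 0.914 (0.895 to 0.933), most of its reads being those of Slc38a2.

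No expressed exchanger of large neutral amino acids was called, where 3.47% of all expressed genes were higher and 1.26% lower. Slc7a5 (LAT1), the leading importer of leucine and other essential amino acids, was at 308 CPM in K5.Pp6fl/fl and 319 CPM in Pp6fl/fl, a fold of 0.968 (0.933 to 1.004). Slc7a8 (LAT2) had 137 reads in K5.Pp6fl/fl and 106 in Pp6fl/fl, a fold of 1.44 (1.11 to 1.87), not called. The facilitators Slc43a1 (LAT3) and Slc43a2 (LAT4) were near the floor, and their intervals, 0.317 to 1.44 and 0.9 to 2.24, both included 1. The exchangers of alanine, serine, cysteine and glutamine were at like levels in the libraries. Slc1a4 (ASCT1) was at 74.7 CPM in K5.Pp6fl/fl and 70.2 CPM in Pp6fl/fl, a fold of 1.06 (0.984 to 1.15). Slc1a5 (ASCT2) was at 30.2 CPM in K5.Pp6fl/fl and 30.0 CPM in Pp6fl/fl, a fold of 1.008 (0.894 to 1.14).

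No lysosomal, glycine or vesicular carrier of the class was called, where 3.47% of all expressed genes were higher and 1.26% lower. The lysosomal glutamine exporter Slc38a7 had 416 reads in K5.Pp6fl/fl and 539 in Pp6fl/fl, a fold of 0.859 (0.754 to 0.978). For Slc38a9, the lysosomal arginine sensor that signals to mTORC1, the fold was 0.854 (0.689 to 1.06), and for Slc36a1 (PAT1) and Slc36a4 (PAT4) it was 0.915 (0.78 to 1.07) and 0.912 (0.796 to 1.04). The glycine transporter Slc6a9 was at 46.7 CPM in K5.Pp6fl/fl and 42.1 CPM in Pp6fl/fl, a fold of 1.11 (1.004 to 1.22). In the reference annotation its exons share 1429 bases with exons of Ccdc24 on the opposite strand, and the TruSeq RNA kit named in the labels does not mark strand, so the reads of these genes cannot be fully told apart. Slc6a17, known from synaptic vesicles, had 94 reads in K5.Pp6fl/fl and 136 in Pp6fl/fl, a fold of 0.769 (0.585 to 1.008), while its FPKM ratio was 1.06. The other 14 neutral members were under the floor. Of these, Slc6a20a, Slc7a15, Slc6a15, Slc6a19, Slc6a20b and Slc38a3 had at most 6 reads in a library, and Slc36a2, Slc6a18, Slc7a10, Slc38a5, Slc38a8, Slc7a12, Slc6a5 and Slc6a7 had 0 in both.

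The heavy chain Slc3a2, which carries the Slc7 exchangers to the surface and also binds integrins, had 5388 reads in K5.Pp6fl/fl and 6418 in Pp6fl/fl. Its fold was 0.934 (0.901 to 0.969), next to 0.97 (0.94 to 1.002) for the summed reads of its light chains. By FPKM Slc3a2 stood at 1.76 times the summed light chains in K5.Pp6fl/fl and 1.83 times in Pp6fl/fl. Slc7a5 made up 79.1% of the light chain FPKM in K5.Pp6fl/fl and 78.8% in Pp6fl/fl. Slc3a1, the partner of Slc7a9 in kidney, had 1 read in K5.Pp6fl/fl and 3 in Pp6fl/fl.

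The Slc6 and Slc43 families also hold carriers of other substrates, kept in a class of their own. Here 3 of 10 were expressed and none was called, where 3.47% of all expressed genes were called higher and 1.26% lower. The taurine transporter Slc6a6, which balances cell volume, was at 174 CPM in K5.Pp6fl/fl and 199 CPM in Pp6fl/fl, a fold of 0.873 (0.832 to 0.916). The creatine transporter Slc6a8 went the other way, at 110 CPM in K5.Pp6fl/fl and 92.6 CPM in Pp6fl/fl, a fold of 1.19 (1.12 to 1.27). The serotonin transporter Slc6a4 had 49 reads in K5.Pp6fl/fl and 34 in Pp6fl/fl, a fold of 1.6 (1.01 to 2.56) that missed the rule once 0.5 CPM was added. Slc38a6 and Slc38a10, without a settled substrate, were at folds of 1.03 (0.971 to 1.09) and 1.01 (0.934 to 1.1). The noradrenaline and dopamine transporters Slc6a2 and Slc6a3 and the betaine carrier Slc6a12 had at most 5 reads in a library, and the carriers Slc6a11 and Slc6a13 had 0 in both. The nucleobase carrier Slc43a3 had 9 reads in K5.Pp6fl/fl and 14 in Pp6fl/fl. Of the remaining members with no assigned class, Slc7a4 had 9 reads in K5.Pp6fl/fl and 2 in Pp6fl/fl, Slc7a14 had 2 and 0, and Slc6a21 had 0 and 1, in that order. Slc36a3, Slc38a11 and Slc6a16 had 0 reads in both.

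For some low members the size of a difference depended on whether reads or FPKM were used. Of the 28 expressed members, 6 had log2 ratios by reads and by FPKM more than 0.25 apart, as did 8.28% of all expressed genes. They were Slc7a3, Slc6a17, Slc6a4, Slc43a2, Slc7a2 and Slc43a1. The widest gap was that of Slc43a1, with a fold of 0.689 by CPM from 13 reads in K5.Pp6fl/fl and 21 in Pp6fl/fl, and a fold of 0.276 by FPKM. Slc43a2 had a fold of 1.41 by CPM and 2.73 by FPKM. RSEM, named in the submitters' processing notes, weights transcript length by isoform shares, which can differ between libraries. The part of isoform shares in these gaps was not tested. Slc6a14 had nearly the same ratio by both measures.

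**Figure D3:**
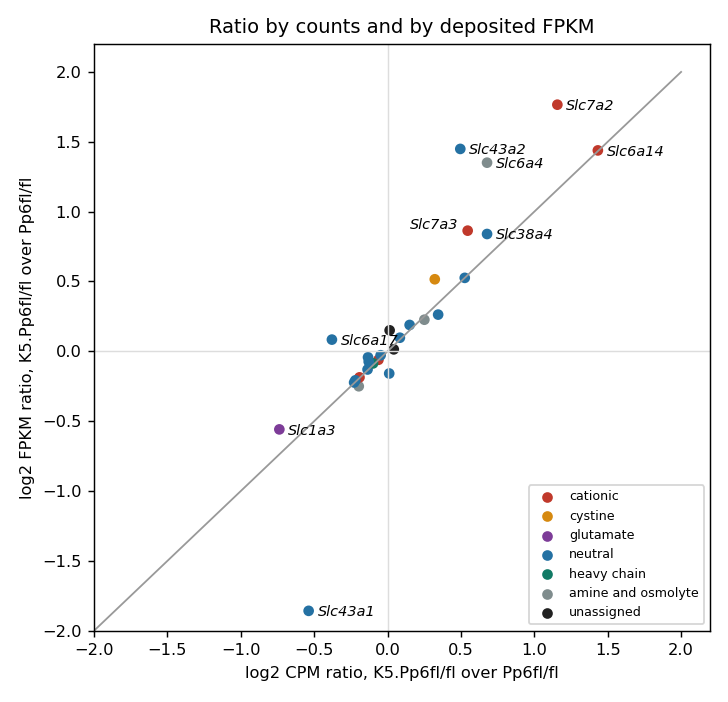
Log2 ratio of K5.Pp6fl/fl over Pp6fl/fl by CPM (x axis) and by deposited FPKM (y axis) for the 28 expressed members, coloured by substrate class, with the diagonal of equal ratios; no pseudocount was added. Slc6a14 lies on the diagonal, and Slc43a1, Slc43a2, Slc6a4 and Slc7a2 lie farthest from it.

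Genes around the transporters gave few calls, where 3.47% of all expressed genes were called higher and 1.26% lower. Of 14 expressed carriers of other families that move amino acids or peptides, none was called and the median log2 ratio was 0.03. The most abundant by FPKM, the mitochondrial aspartate-glutamate carrier Slc25a12 and glutamate carrier Slc25a22, had folds of 1.002 (0.899 to 1.12) and 0.955 (0.843 to 1.08). Among 23 genes of ATF4 and the amino acid response, the program that induces Slc7a11, Slc38a2 and Slc7a5 when amino acids are scarce, none was called and the median was 0.02. Its regulator Atf4 was at 666 CPM in K5.Pp6fl/fl and 668 CPM in Pp6fl/fl, a fold of 0.998 (0.973 to 1.02). Phgdh, the entry enzyme of serine synthesis, had a fold of 1.1 (1.06 to 1.14). The mitochondrial folate enzyme gene Aldh1l2 had the highest ratio of the list, 1.46 (1.32 to 1.61), and was named after its value was seen. Over the 23 genes the counting interval lay above 1 for 10 and below 1 for 2. Among all expressed genes it did for 16.6% and 17.4%, and such counts also follow read depth.

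Lysosomal amino acid sensing and mTORC1 had 29 of 30 genes expressed, with a median of 0.01. Of the 29, 1 (3.45%) was called higher and none lower, where 3.47% of all expressed genes were higher and 1.26% lower. The called gene was Rragd, a Rag GTPase that recruits mTORC1 to lysosomes, with 23 reads in K5.Pp6fl/fl and 7 in Pp6fl/fl, a fold of 3.66 (1.52 to 10.1), and it passed the floor only through K5.Pp6fl/fl. Of 6 expressed partners and regulators of transporters none was called, with a median of -0.03. The surface glycoprotein gene Bsg had a fold of 0.967 (0.933 to 1.002) and the ubiquitin ligase gene Nedd4 a fold of 1.009 (0.984 to 1.04). The 4 expressed melanocyte markers had a median of 0.88, and Sox10 and Mlana were each at 0.46 CPM in K5.Pp6fl/fl and 0.362 CPM in Pp6fl/fl. Of the 4, Tyr passed the floor only through K5.Pp6fl/fl, at 1.21 CPM against 0.672 CPM in Pp6fl/fl. Its ratio interval was 0.859 to 3.91. The part of melanocyte RNA in the higher values of Slc6a14, Slc38a4 and Slc7a2 was not tested.

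**Figure D4:**
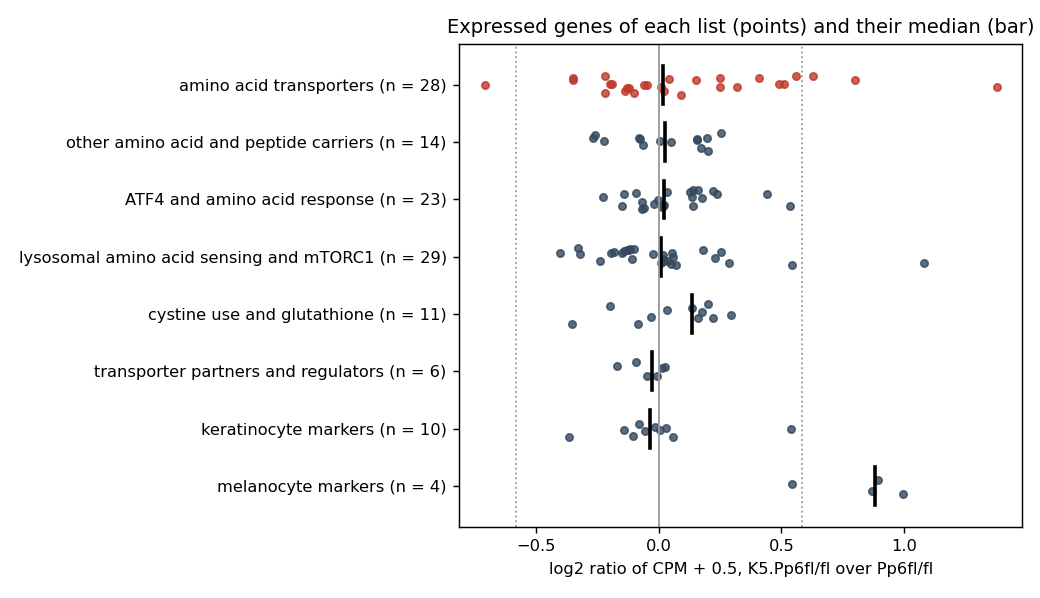
Log2 ratio (0.5 CPM added, K5.Pp6fl/fl over Pp6fl/fl) for the expressed genes of each list (points) with their median (bar); the solid line marks 0 and the dotted lines 1.5-fold either way. Medians of the transporter and pathway lists lie between -0.03 and 0.13, and that of the melanocyte markers at 0.88. Slc7a2, Rragd and Tyr passed the floor only through K5.Pp6fl/fl, and Slc43a1 only through Pp6fl/fl.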

How the data were processed

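The data are 1 table of 47719 genes. Its deposited count columns hold estimated counts that the authors had scaled, each library by its own constant. Divided by steps of 1.05737 (K5.Pp6fl/fl) and 0.94574 (Pp6fl/fl), 97.4% and 97.3% of the values under 100 reads were whole within 0.01 reads. The quotients, rounded, are the reads used here. The FPKM, log2 fold change, p-value and FDR columns are the authors', and the p-values are not used. The 170 genes marked significant in the deposited table all have a log2 fold change of at least 1.01 in size and an FDR of at most 0.0442. RSEM, edgeR and mm8 are named without roles in the submitters' processing notes. For aligner and annotation, nothing is given in the sources used here.

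Symbols were matched by Ensembl ID for 47219 genes, and gene types and exon overlaps came from GENCODE M21 (GRCm38). Unmatched genes held 0.106% of K5.Pp6fl/fl reads and 0.105% of Pp6fl/fl reads. The gene Slc7a6os, named for its position, is no member, and the lettered Slc6a20a and Slc6a20b are. CPM used TMM factors of 1.0013098 and 0.99869187 (edgeR 4.0.16, R 4.3.3). Ratio intervals are conditional binomial (Clopper-Pearson) and read intervals exact Poisson, at 95%. They cover counting error alone, and PCR copies make reads less independent than they assume. A count of 0 allows up to 3 reads. Substrate classes follow textbook preferences. Members and lists were chosen with earlier results of these data known. Every expressed member is named (1 member that is not expressed is not reported here), as are in each pathway list the called genes or, with none, the 2 most abundant by FPKM.

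Alternatives were pseudocounts of 0.1 and 2 CPM, DESeq2 1.42.0 size factors, total counts, floors of 5 CPM and none, FPKM, a 2-fold rule and no interval condition.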

Additional observations from a re-analysis of the deposited data

How the results depend on the processing

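Over 188 values of single members under the alternatives, 186 moved by less than 0.5 times the width of their log2 counting interval. The other 2 moved by more, and no called member changed sign. The 23 values at a floor of 5 CPM and the 28 with no floor could not move, because a floor only selects members. A value within this limit can still lose its call, as Slc7a2 did with a pseudocount of 2 CPM (log2 ratio 0.42, where it was 0.8). The other library scalings changed no call. Slc6a14 was called higher under every alternative run, with log2 ratios of 1.25 to 1.42. A pseudocount of 0.1 CPM added Slc6a4, and a floor of 5 CPM removed Slc7a2. The number of members called higher was 3, but 1 with a pseudocount of 2 CPM (Slc6a14) and 1 at 2-fold (Slc6a14). With no floor it was 5 (with Slc1a1 and Slc7a4 added). The number called lower was 1, but 0 at 2-fold. Among all genes, 3.47% were called higher by the main rule, 3.76% with a pseudocount of 0.1 CPM and 1.81% with 2 CPM. The share was 2.18% at a floor of 5 CPM, 2.65% with no floor and 0.811% at 2-fold. Called lower were 1.26% by the main rule and 0.195% at 2-fold. By FPKM 4 were called higher (Slc6a14, Slc38a4, Slc7a3 and Slc6a4) and 1 lower, Slc43a1 in place of Slc1a3. Of all genes, 5.6% were called higher by FPKM and 3.33% lower. The FPKM rule had no condition on the counting interval, and its floor of 1 FPKM left 25 members. A floor of 5 CPM gave a median log2 ratio of 0.22 for the cationic class, where it was 0.51, and 0.03 for amine and osmolyte carriers, where it was 0.25. With no floor the medians were 0.03 for the glutamate class (-0.71 from Slc1a3 alone), -0.17 for heavy chains (-0.10) and -0.09 for amine and osmolyte carriers. These shifts come with which members were counted. No paired analysis was possible because each genotype has 1 library, and for the same reason no library could be left out.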
